A study of Mus musculus with 9 samples.

Results

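The nuclear-encoded subunits of the mitochondrial respiratory chain were followed through 9 RNA libraries from mouse left ventricular tissue. A gene was a member when its symbol began with Ndufa, Ndufb, Ndufc, Ndufs or Ndufv and a number, with Uqcr, with Cox4 to Cox8 or with Atp5, or was Sdha, Sdhb, Sdhc, Sdhd, Ndufab1, Cyc1 or Cycs. The 6 matching symbols that carried -ps were left out. This gave 86 of the 30128 genes in the table, with 36 in complex I, 4 in complex II, 9 in complex III, 19 in complex IV, 17 in complex V and cytochrome c (Cycs). Ndufa4 and Ndufa4l2 were placed with complex IV, where Ndufa4 is now known to belong. Atp5s and Atp5sl, named Dmac2l and Dmac2 in RefSeq, act as coupling or assembly factors and were counted with complex V by name alone. Of the 86 genes, 85 passed the filter on low values and were tested. Cox7b2, a testis form of a complex IV subunit, did not pass it, with 2 reads in control replicate 1, 2 in each USP28-virus library and 0 in the other 5.

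The respiratory chain passes electrons from NADH (complex I) and succinate (complex II) through complex III, cytochrome c and complex IV to oxygen, and complex V, the ATP synthase, uses the proton gradient so built to make ATP. Complex II is encoded wholly in the nucleus, while the other complexes join nuclear subunits with subunits encoded in mitochondrial DNA. The beating heart makes nearly all of its ATP this way, and these transcripts are among its most abundant.

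The 3 groups held 3 libraries each. Control libraries came from animals of wild-type genotype, for which the labels name no virus. The null-virus group was db/db, a leptin receptor mutant that becomes obese and diabetic, and had received AAV9_null. The USP28-virus group was db/db and had received AAV9_USP28, an adeno-associated virus that expresses the deubiquitinase USP28 from the cTnT promoter, active in cardiomyocytes. No virus alone was given to wild-type animals, so genotype and virus cannot be told apart against control. Strain, age, sex and time are not in the labels, and neither is whether replicates came from separate animals, so p-values measure the spread between these libraries. Depth ran from 35970332 to 56497662 reads, and mitochondrially encoded genes took 15.7% to 19.9% of them. Summed cardiomyocyte markers were at 26362 to 30497 scaled RPKM in control, at 33637, 24454 and 22974 in null-virus replicates 1 to 3, the highest and the lowest values, and at 25348 to 29361 with USP28 virus. Of the 8 markers Ttn was lower with null virus (12.5% of all genes tested were), and without replicate 1 there 3 were lower and 1 higher (16.3% and 15.6% of all genes tested). Usp28 itself was at 12.6, 13.3 and 13.9 scaled RPKM in the control libraries, at 9.87, 7.52 and 7.79 in those given null virus and at 9.77, 11.3 and 11.4 in those given USP28 virus. It fell by 0.66 on the log2 scale from control to null virus (adjusted p = 0.00728), and its difference between the 2 viruses, 0.37, did not pass the test (adjusted p = 0.187). Without null-virus replicate 1, described next, that difference was 0.48 and passed (adjusted p = 0.016). Whether reads of the viral sequence were counted under Usp28 is not known here.

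Replicate 1 of the null-virus group stood apart from the other 8 libraries. Its values differed from the mean of the other null-virus libraries by 0.501 on the log2 scale on average over all genes tested, against 0.218 to 0.32 for each other library and its group. The subunit genes took 5.05% of its reads from nuclear genes and 3.55% to 4.21% in the others. Counts and calls of subunit genes that change without it are therefore given both ways.

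Levels are RPKM, reads per kilobase of gene length and per sequencing depth (counted reads in units of 1e6), after scaling between libraries, and are means ± SD of the 3 libraries of a group. In control ventricle the subunit genes ran from 4.04 to 1012 scaled RPKM, leaving aside the testis forms Cox6b2 (0.894 ± 0.632) and Cox7b2. Cox7a1, the heart and muscle form of a small complex IV subunit, was highest at 1012 ± 68.4. Cox6a2, another heart and muscle form, followed at 980 ± 71.6, and Atp5h, a peripheral stalk subunit of the ATP synthase, at 970 ± 67.8, so that these 3 leaders did not differ beyond their spread. Uqcrb, which binds near cytochrome b, led complex III at 878 ± 55.9. Ndufb9, an accessory subunit of the membrane arm, led complex I at 556 ± 51.8. Sdha, the flavoprotein that oxidises succinate, led complex II at 321 ± 20.1. The lowest were Ndufb2 in complex I (7.85 ± 0.625), the membrane anchor Sdhc in complex II (50.2 ± 2.07), Uqcr10 in complex III (75.3 ± 8.43), Cox7b2 in complex IV and the factor Atp5s in complex V (4.04 ± 0.289). These levels depend on the gene length used. The table's length was a median of 1.36 times that of the principal transcript in GENCODE M21. It was at least 3 times as long for 14 members, and 11.8 times for Atp5l. Counted per principal transcript, the order became Atp5h (2083 ± 146), Atp5j (1900 ± 166), Atp5b (1519 ± 104), Uqcrb (1438 ± 91.5) and Cox7a1 (1377 ± 93.2), and Spearman's rho between both measures was 0.913 over the 85 genes that have both. Differences between groups do not depend on this length.

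**Figure D1:**
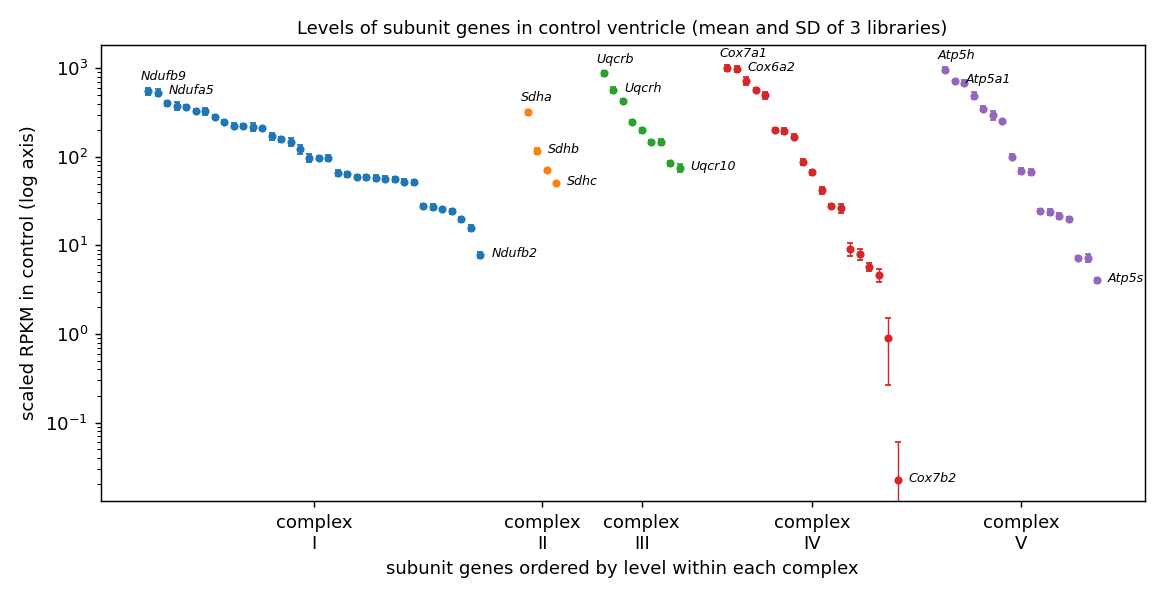
Mean and SD of scaled RPKM over the 3 control libraries (log axis) for the subunit genes of complexes I to V, ordered by level within each complex, with the highest, next and lowest gene of each named. Complexes III, IV and V each hold genes at 878 or more, and only Cox6b2 and Cox7b2, testis forms of complex IV subunits, lie below 1.

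Promoter sequence was looked up because the results turn on a few members that differed from control in opposite directions and on pairs of tissue forms. RefSeq promoters of build GRCm38.p6 (from 250 bases before to 50 after the start) were found for 71 of the 86 members. None was found for Sdhc or Ndufs1, so these are not printed. The 100 bases before the start are printed 5′ to 3′ along the gene, with matches to a motif in capitals. The first pair, Sdha (chr13:74350241-74350340, minus strand) and Ndufa10 (chr1:92473759-92473858, minus strand), belongs to genes that were lower in every db/db library than in every control library. Sdha did not pass the test in any comparison with all libraries.
Sdha: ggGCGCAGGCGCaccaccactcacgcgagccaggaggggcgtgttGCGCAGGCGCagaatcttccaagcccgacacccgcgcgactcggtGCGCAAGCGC
Ndufa10: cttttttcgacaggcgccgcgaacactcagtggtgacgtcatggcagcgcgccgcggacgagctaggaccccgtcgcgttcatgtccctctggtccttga
The next 3, Atp5g2 (chr15:102671048-102671147, minus strand), Ndufa3 (chr7:3617273-3617372, plus strand) and Ndufa7 (chr17:33824472-33824571, plus strand), belong to genes that were higher with null virus.
Atp5g2: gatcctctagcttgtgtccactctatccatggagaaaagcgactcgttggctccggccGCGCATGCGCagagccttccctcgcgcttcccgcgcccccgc
Ndufa3: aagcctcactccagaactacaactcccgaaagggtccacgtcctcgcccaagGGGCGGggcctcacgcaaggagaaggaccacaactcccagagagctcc
Ndufa7: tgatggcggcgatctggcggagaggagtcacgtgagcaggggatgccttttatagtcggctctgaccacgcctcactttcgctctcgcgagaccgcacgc
The last 3 set the heart and muscle forms Cox7a1 (chr7:30184071-30184170, plus strand) and Cox8b (chr7:140900447-140900546, minus strand) beside the widely expressed form Cox7a2 (chr9:79759854-79759953, minus strand).
Cox7a1: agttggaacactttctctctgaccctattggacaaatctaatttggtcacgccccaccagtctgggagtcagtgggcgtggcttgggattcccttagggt
Cox8b: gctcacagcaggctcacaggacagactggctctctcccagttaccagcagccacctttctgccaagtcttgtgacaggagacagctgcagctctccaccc
Cox7a2: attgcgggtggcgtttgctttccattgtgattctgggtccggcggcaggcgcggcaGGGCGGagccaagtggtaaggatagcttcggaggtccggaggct

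Capitals mark the nuclear respiratory factor 1 motif (GCGCA, any base, then GCGC) in Sdha and Atp5g2, and GGGCGG (the SP1 motif) in Ndufa3 and Cox7a2. Sdha held 3 matches to the first of these. Ndufa10, Ndufa7, Cox7a1 and Cox8b held no match to any motif searched within the printed bases. Over whole promoters, searched on both strands, the nuclear respiratory factor 1 motif was in 17 of 71 member promoters (23.9%), in 11.5% of those of tested genes and in 4.6% of all 32851. The estrogen-related receptor motif AAGGTCA was in 8 member promoters (11.3%) and in 3.89% of those of tested genes, and AAGATGGCG (YY1) was also in 8, against 336 of 8876 tested genes. CCGGAAGT (GABPA) was in 5 (7.04%), against 9.17% of tested genes and 3.89% of all promoters. GGGCGG was in 30 of 71 (42.3%), against 68.4% of tested genes and 35.7% of all promoters. For both motifs the direction turns on the background. Members and tested genes were counted by gene, with a match in any of their promoters, and all promoters singly. No motif of these 5 contains another. A match describes the letters only.

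The comparison of null virus with control sets db/db ventricle without added USP28 beside wild-type ventricle, and genotype and virus cannot be told apart in it. Sdhc, Ndufa3, Ndufa7, Atp5d and Atp5g2 rose in db/db hearts given null virus, and Ndufs1 fell. Between them they come from complexes I, II and V. Most other subunit genes were higher too, by most in replicate 1 of the null-virus group. With adjusted p under 0.05 by limma over all 14104 genes tested, 5 of 85 members passed as higher and 1 as lower, while 9.7% of all genes passed as higher and 12.5% as lower, so the members' shares lay below those of all genes. The median log2 difference of the 85 members was 0.38, with 76 above 0, against -0.01 for all genes. Without replicate 1 the median was 0.11, with 64 above 0, and 17 members passed as higher and 2 as lower, against 15.6% and 16.3% of all genes.

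**Figure D2:**
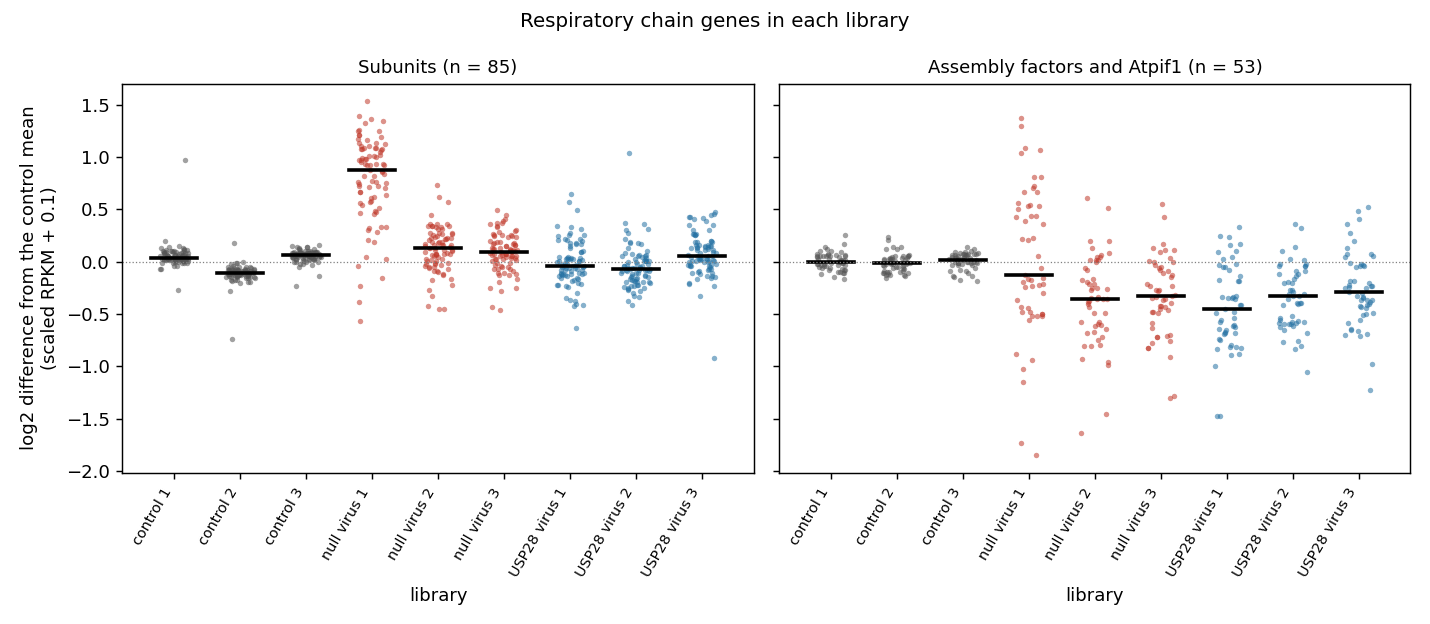
Log2 difference of each tested gene from its control mean (scaled RPKM + 0.1), by library, for the 85 subunit genes (left) and the 53 assembly factors including Atpif1 (right); each point is a gene and each bar the median. Null-virus replicate 1 has a median of 0.87 for subunits, while the other db/db libraries lie between -0.07 and 0.13; assembly factors have medians from -0.45 to -0.13 in all 6 db/db libraries.

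By library, the median member stood 0.87 above the control mean in null-virus replicate 1, 0.13 in replicate 2 and 0.09 in replicate 3. Replicate 1 was above all other 8 libraries for 78 of 85 members. It was below both other null-virus libraries only for Ndufs1, Sdha and Atp5a1. Short genes as a whole moved most in that library. When all genes tested were cut into 5 classes by length, the shortest (up to 1206 bases) had a median of 0.36 there and the longest (from 6173 bases) a median of -0.34. The other db/db libraries went the same way by less, with medians of 0.07 to 0.11 in the shortest class and -0.09 to -0.04 in the longest. Members were mostly short, with a median length of 1495 bases, and 32 of the 85 lay in the shortest class. In that library members had higher medians than all genes in each class, from 1.06 in the shortest (32 members) to 0.51 in the longest (3 members). The 94 tested genes with symbols beginning with Rpl or Rps and a number had a median of 1.47 in replicate 1. It was 0.27 to 0.51 in the other db/db libraries. These are mostly cytosolic ribosomal protein genes, though such a rule can also take in kinases named Rps6k. The part that gene length or this library's RNA had in the results was not tested, beyond the values without it and with the length trend removed, where the members' median was 0.28.

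Sdhc, which anchors succinate dehydrogenase in the inner membrane and binds haem and ubiquinone, rose most firmly. The gene lies on chromosome 1 from 171127165 to 171150603 (GRCm38). Sdhc stood at 49.6, 48.4 and 52.4 scaled RPKM in the control libraries (replicates 1 to 3), 100.3, 74.3 and 70.7 with null virus, and 59.5, 56.8 and 64 with USP28 virus. Both groups given a virus lay wholly above control and did not overlap each other, with null virus highest. It rose by 0.69 on the log2 scale from control to null virus (SE 0.14, adjusted p = 0.00974), and without replicate 1 it was 0.54 (adjusted p = 0.00101). Sdhc passed under each of the 21 alternatives computed. No other subunit of complex II passed, and only Sdha differed in the other direction with all libraries. Sdha was at 321 ± 20.1 in control and 272 ± 26.1 with null virus, without overlap (adjusted p = 0.152), and the iron-sulfur subunit Sdhb at 117 ± 9.2 and 149 ± 41.3 (adjusted p = 0.218). Sdhd was at 71.8 ± 0.873 and 84.9 ± 27.6 (adjusted p = 0.486). Without replicate 1 the log2 differences of Sdhb and Sdhd were 0.11 and -0.04.

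Ndufa3, an accessory subunit in the membrane arm of complex I, is on chromosome 7 from 3617373 to 3620327. Scaled RPKM was 17, 14.8 and 15.8 in control, 45.9, 24.3 and 20.8 with null virus, and 22.3, 20.3 and 22 with USP28 virus. All 6 db/db libraries exceeded the 3 control libraries, and null-virus replicate 1 was far above the next library. The rise with null virus was 0.85 on the log2 scale (SE 0.25, adjusted p = 0.0414), and 0.52 without replicate 1 (adjusted p = 0.00437).

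Ndufa7, an accessory subunit of the peripheral arm, showed the same order of groups. Its scaled RPKM was 24.1, 23 and 25.8 in control, 56.3, 30.8 and 33.1 with null virus, and 29.1, 29.9 and 32.2 with USP28 virus. Control did not overlap either db/db group. The log2 rise with null virus was 0.66 (SE 0.2, adjusted p = 0.0464), or 0.40 without replicate 1 (adjusted p = 0.00439).

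Ndufs1, the largest iron-sulfur subunit of complex I and part of its catalytic core, went the other way. It spans chromosome 1 from 63143596 to 63176833, and its table length of 8086 bases is the greatest of any member. Scaled RPKM was 60.3, 56.5 and 62.8 in control, 40.3, 44.6 and 50.1 with null virus, and 44.8, 47.7 and 51.9 with USP28 virus. Every db/db library lay below every control library, and null-virus replicate 1 was the lowest of all. Ndufs1 fell by 0.42 from control to null virus on the log2 scale (SE 0.11, adjusted p = 0.0281), and by 0.33 without replicate 1 (adjusted p = 0.0182). With the length trend removed the difference was -0.28 and did not pass (adjusted p = 0.0542). Ndufs1 exons share 489 bases with Ino80dos on the opposite strand, and sources used here do not give the strand setting of the count. Atp5d shares 68 exon bases with Cbarp and Ndufa3 4 with Tfpt, both on the opposite strand, and Atp5g2 shares 75 with Mir688 on its own strand.

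Ndufv1, the core subunit of complex I that binds NADH and flavin, was at 96.7 ± 7.62 in control and 128 ± 27.2 with null virus (adjusted p = 0.0951). Ndufa10, an accessory subunit of the membrane arm, was lower without overlap, at 364 ± 19.5 and 304 ± 5.2 (adjusted p = 0.128).

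In complex V, Atp5d and Atp5g2 rose. Atp5d encodes the delta subunit of the central stalk and had scaled RPKM of 23.9, 24.2 and 25.8 in control, 47.1, 31.2 and 30.2 with null virus, and 25.1, 24.6 and 26.6 with USP28 virus. Null virus lay above both other groups, which overlapped each other. The log2 difference from control was 0.52 (SE 0.16, adjusted p = 0.046), and 0.33 without replicate 1 (adjusted p = 0.00502). Atp5g2, which encodes 1 of the 3 precursors of the proton-carrying c ring, was at 7.51, 6.41 and 7.88 in control, 14.4, 9.31 and 9.37 with null virus, and 8.67, 8.29 and 9.24 with USP28 virus. The 3 groups did not overlap, with control lowest and null virus highest. The log2 rise with null virus was 0.57 (SE 0.17, adjusted p = 0.043), and 0.38 without replicate 1 (adjusted p = 0.0192). The catalytic beta subunit Atp5b was at 687 ± 46.8 in control and 766 ± 71.7 with null virus (adjusted p = 0.372).

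**Figure D3:**
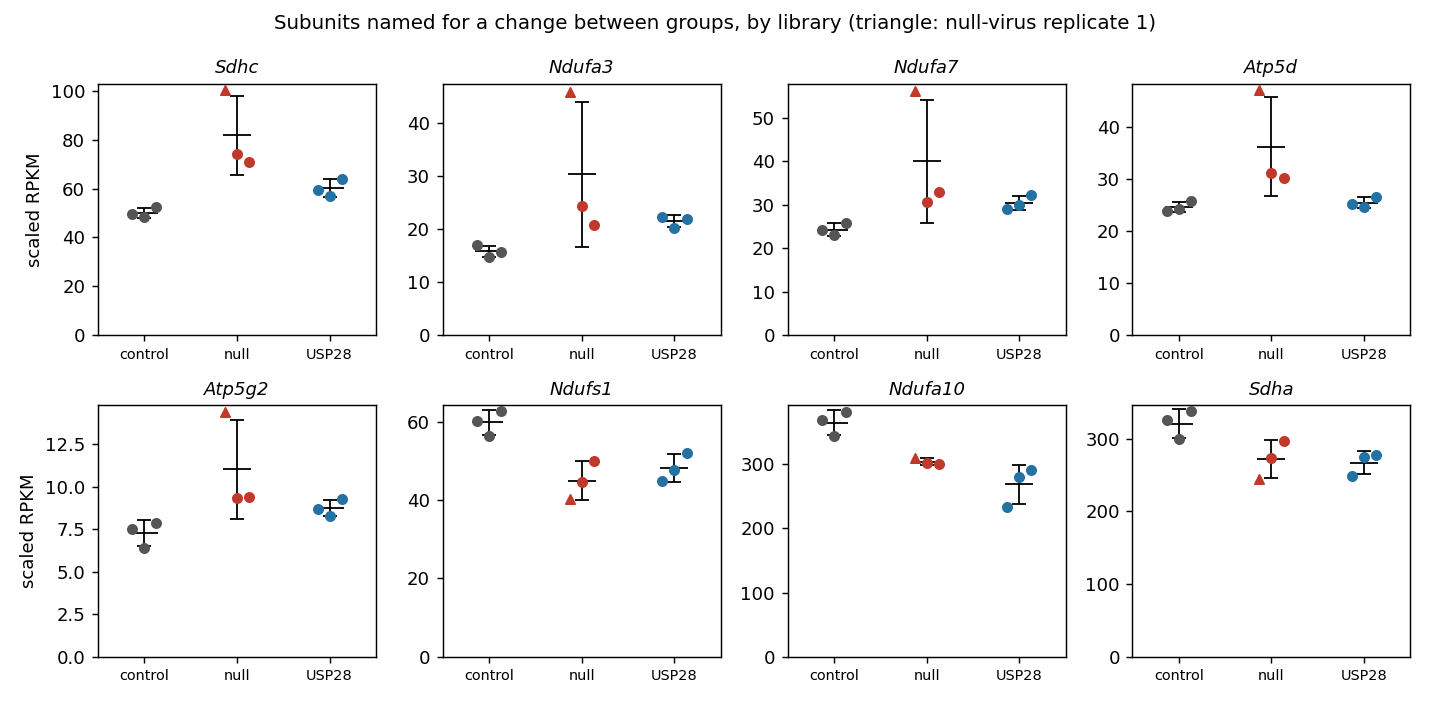
Scaled RPKM by library (points; triangle for null-virus replicate 1) with group mean and SD for 8 subunit genes in control, null-virus (null) and USP28-virus (USP28) hearts, each axis starting at 0. Sdhc, Ndufa3, Ndufa7, Atp5d and Atp5g2 are highest with null virus, and Ndufs1, Ndufa10 and Sdha are lower in all 6 db/db libraries than in control.

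No member of complexes III and IV passed in this comparison. In complex III the mean levels of catalytic subunits and of a core protein were near control, though null-virus replicate 1 was higher for some. Cytochrome c1 (Cyc1) was at 147 ± 7.66 in control and 144 ± 22.2 with null virus, the Rieske protein Uqcrfs1 at 249 ± 11 and 275 ± 57.4, and the core protein Uqcrc1 at 199 ± 11.7 and 193 ± 9.93. In null-virus replicate 1 Cyc1 was at 169 and Uqcrfs1 at 341, above all control libraries. In complex IV, Cox4i1, the usual form of the regulatory subunit 4, was at 580, 536 and 602 in control, and 1152, 732 and 707 with null virus. The groups did not overlap (log2 0.56, adjusted p = 0.0603), and without replicate 1 the difference of 0.34 passed (adjusted p = 0.012). Cox6c behaved alike, at 170 ± 12.1 and 291 ± 117 (adjusted p = 0.0565, and 0.00685 without replicate 1). Ndufa1, needed for the membrane arm of complex I, also passed only without it (log2 0.35, adjusted p = 0.0426).

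Without replicate 1, members passing as higher numbered 5 in complex I, 1 in complex II, 1 in complex III, 3 in complex IV and 7 in complex V. The lower pair was Ndufs1 and the factor Atp5sl (log2 -0.37, adjusted p = 0.00879). Median differences by complex were 0.34, 0.25, 0.33, 0.48 and 0.36 for complexes I to V with all libraries, and 0.09, 0.03, 0.08, 0.19 and 0.11 without replicate 1. Groups did not overlap for 40 members that were higher and 4 that were lower (18.7% and 22.4% of all genes), and without replicate 1 for 40 and 9 (28.1% and 30.7%). The count of members passing rested on other libraries too. It was 2, 1 and 1 without control replicate 1, 2 or 3, 4 and 13 without null-virus replicate 2 or 3, and 2 without any single USP28-virus library. Over these fits 4.66% to 9.43% of all genes passed as higher and 5.52% to 12.7% as lower.

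**Figure D4:**
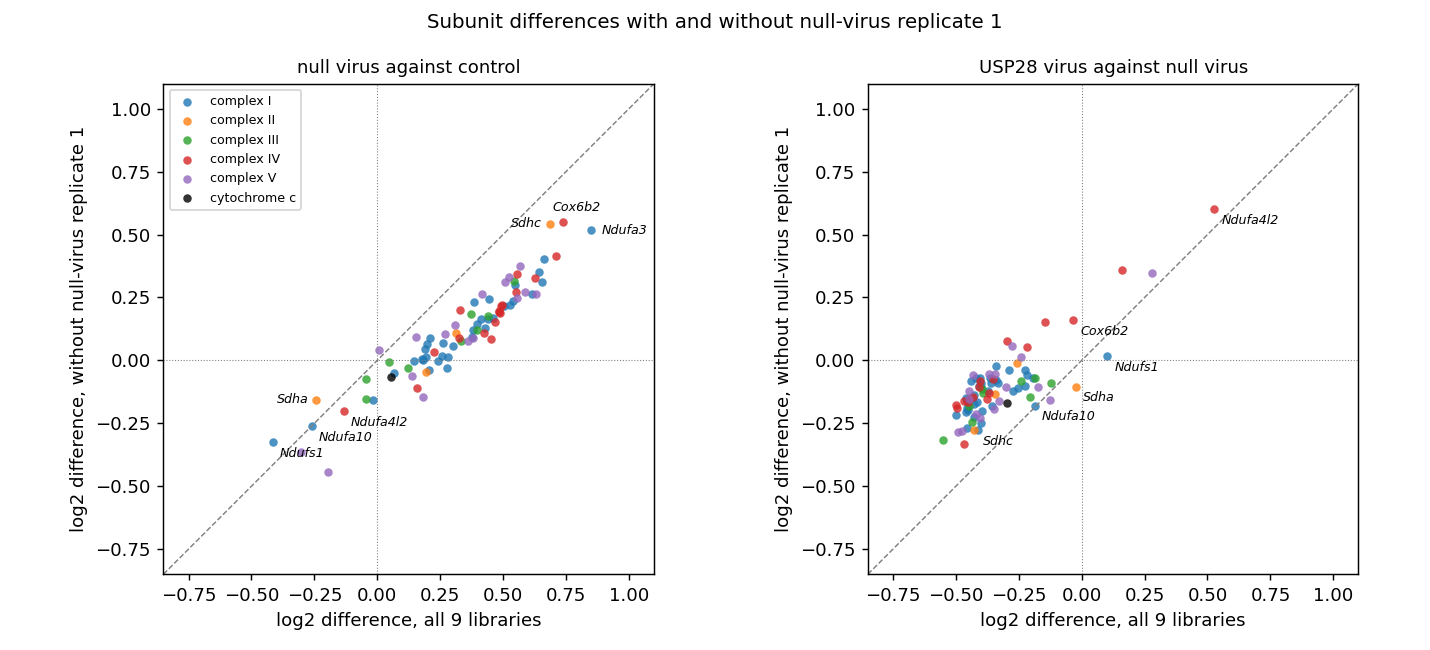
Log2 difference of each of the 85 subunit genes with all 9 libraries (horizontal) and without null-virus replicate 1 (vertical), for null virus against control (left) and USP28 virus against null virus (right), coloured by complex; the dashed line marks equal values. Most genes lie nearer 0 on the vertical axis, with medians of 0.11 and -0.12 in place of 0.38 and -0.37, while on the left Sdhc goes from 0.69 to 0.54 and Ndufs1 from -0.42 to -0.33.

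Setting USP28 virus against null virus addresses what added USP28 does to these transcripts within db/db hearts. No member passed, and 21 of 85 had an unadjusted p under 0.05, as did 16.7% of all genes. Of all genes, 0.333% passed as higher and 0.156% as lower (0.191% and 0.0284% with scaling by library totals alone). Even so, 81 of 85 members were lower with USP28 virus, by a median of -0.37 on the log2 scale against 0.02 for all genes, and 37 were lower and 2 higher without overlap between groups (10.9% and 12.3% of all genes). Without replicate 1 the groups of 37 lower and 4 higher members did not overlap (20.9% and 21.7%). Without replicate 1 the median was -0.12, with 75 members below 0. Then 3 members passed as lower and 1 as higher, against 3.62% and 3.14% of all genes, so the shares were near or under the background. This comparison shares its null-virus libraries with the one before.

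The 3 that passed as lower without replicate 1 were Sdhc, Cox5a and Atp5d. Sdhc and Atp5d, given above, differed by -0.28 (adjusted p = 0.0464) and -0.28 (adjusted p = 0.0356). Cox5a, a subunit on the matrix side of complex IV, was at 29.1, 26 and 28.2 scaled RPKM in control, 42.4, 32.8 and 30.4 with null virus, and 23.7, 24.8 and 27.2 with USP28 virus. USP28-virus libraries lay below all null-virus libraries and overlapped control. The log2 difference between the viruses was -0.47 with all libraries (adjusted p = 0.145) and -0.33 without replicate 1 (adjusted p = 0.0428). Atp5sl was at 7.64, 6.9 and 7.36 in control, 6.54, 5.8 and 5.38 with null virus, and 7.31, 6.9 and 7.3 with USP28 virus. Null virus was below both other groups. The log2 difference between the viruses was 0.28 with all libraries (adjusted p = 0.209) and 0.35 without replicate 1 (adjusted p = 0.036).

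USP28-virus hearts were also set against control. Ndufa10 fell, and it was the only member to pass. The gene is on chromosome 1 from 92439010 to 92473860. Scaled RPKM was 368, 343 and 381 in control, 310, 302 and 299.9 with null virus, and 234, 280.2 and 290.4 with USP28 virus. The 3 groups did not overlap, with control highest and USP28 virus lowest. The log2 difference was -0.45 (SE 0.11, adjusted p = 0.0373), while 5.42% of all genes passed as higher and 6.25% as lower. With scaling by library totals alone these shares were 4.34% and 2.19%, and Ndufa10 did not pass (log2 -0.38). It passed without null-virus replicate 1 (adjusted p = 0.00591), and not without any other single library. The members' median was -0.02, with 35 above and 50 below 0, and turned to 0.04 with library totals alone. Groups did not overlap for 13 higher and 12 lower members (21.8% and 23.7% of all genes). Longer members tended to have lower log2 differences here (Spearman's rho with gene length -0.35, against -0.09 over all genes). The part that length had in the calls of single members was not tested beyond the fit with the length trend removed.

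Leaving out null-virus replicate 1 changes no library of that comparison but lowers the spread that the 3 groups share. Then 8 members passed as higher and 9 as lower, with 14.1% and 15.4% of all genes, and 13 and 12 did not overlap (21.8% and 23.8%). Those higher were led by Ndufa3 (log2 0.45), the complex IV form Cox4i2 (0.39) and Cox7a2l, a factor that joins complexes III and IV (0.34), with Ndufa7, Ndufa13, Sdhc, Cox6c and Atp5g2. Besides Ndufa10, those lower were led by Atp5g1 (log2 -0.35), Ndufs1 (-0.31) and the iron-sulfur subunit Ndufs8 (-0.27), with Sdha, Cyc1, Ndufs3, Ndufab1 and cytochrome c (Cycs). Cycs was at 174, 164 and 171 in control and 133, 144 and 154 with USP28 virus, without overlap (adjusted p = 0.0216 without replicate 1, 0.261 with it). Sdha was at 325, 299 and 339 in control and 248, 275 and 277 with USP28 virus, also without overlap (adjusted p = 0.0235 and 0.164).

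Several subunits exist in tissue forms, and the share of 1 form in the sum of its family does not depend on scaling between libraries. Each of 21 differences in share was tested with an exact two-sided permutation test over 3 against 3 libraries, which cannot go below p = 0.1, so none could pass. After adjustment over the 21 the lowest value was 0.35. The heart and muscle forms held nearly all of their families in every library. Cox6a2 held 99.1% to 99.3% of Cox6a1 and Cox6a2, Cox7a1 96.7% to 97.7% of Cox7a1 and Cox7a2, and Cox8b 94.6% to 96.2% of Cox8a and Cox8b. Cox7a1 had a lower share with null virus (96.9% ± 0.339) than in control (97.5% ± 0.132), without overlap (exact p = 0.1).

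The small shares of Cox4i2 and Ndufa4l2, forms of complex IV subunits known to be raised when oxygen is low, were higher with USP28 virus than with null virus. Cox4i2 held 1.07%, 1.05% and 0.855% of Cox4i1 and Cox4i2 in control, 0.767%, 0.863% and 0.739% with null virus, and 1.09%, 1.22% and 1.12% with USP28 virus. The USP28-virus libraries lay above all others (exact p = 0.1 against each group). Ndufa4l2 held 3.96%, 6.23% and 5.21% of Ndufa4 and Ndufa4l2 in control, 2.51%, 3.13% and 4.63% with null virus, and 6.58%, 6% and 5.41% with USP28 virus. Here the 2 virus groups did not overlap (exact p = 0.1), and control overlapped both. In level, Ndufa4l2 was at 4.27 ± 0.788 with null virus and 6.14 ± 0.678 with USP28 virus, a log2 difference of 0.53 that did not pass (adjusted p = 0.183). The level of Cox4i2 overlapped between the viruses, at 6.85 ± 1.87 and 7.49 ± 0.285 (log2 0.16, adjusted p = 0.65). Its highest library was null-virus replicate 1, at 8.91, and without it the difference was 0.36 (adjusted p = 0.0933). Cox4i1, the rest of that family, was lower with USP28 virus by 0.37 (adjusted p = 0.342), so the Cox4i2 share also reflects Cox4i1. Among the 3 genes for the c ring, whose mature proteins are identical, Atp5g1 held 21.9% ± 1.1 in control hearts, 20.1% ± 0.834 after null virus and 18.3% ± 1.12 after USP28 virus. Control and USP28 virus did not overlap (exact p = 0.1).

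**Figure D5:**
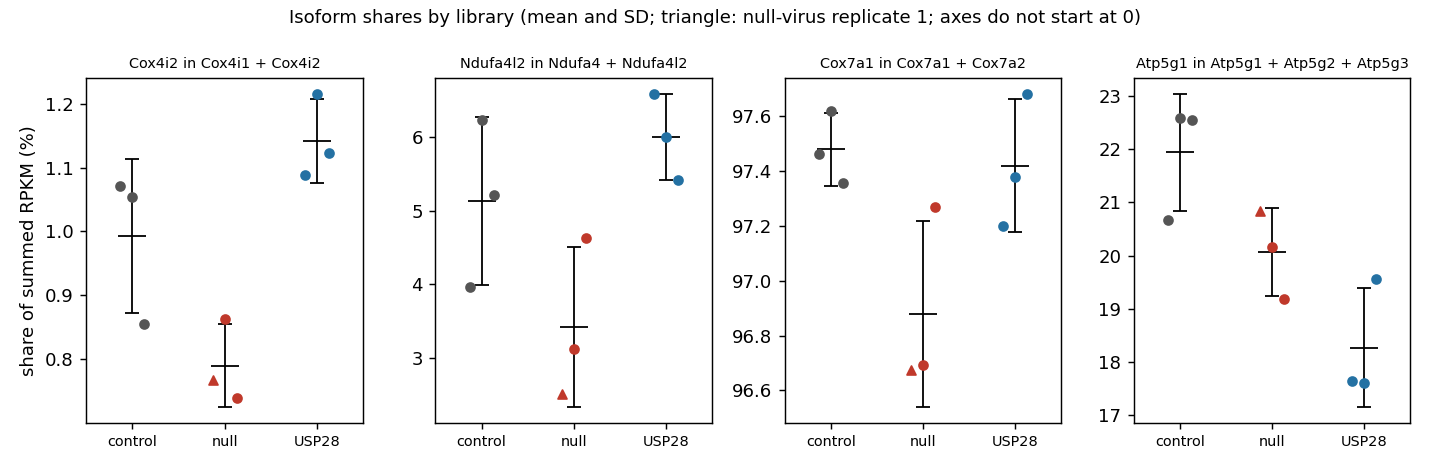
Share of 1 form in the summed RPKM of its family (percent), by library (points; triangle for null-virus replicate 1) with group mean and SD, for Cox4i2, Ndufa4l2, Cox7a1 and Atp5g1; the axes do not start at 0. Cox4i2 is at 1.09% to 1.22% in the USP28-virus libraries and at or under 1.07% in all others.

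Subunits are built into complexes by assembly factors, which are also nuclear-encoded. A list of 54 such genes, with the ATP synthase inhibitor Atpif1 included, had 53 tested. With null virus 18 fell and 2 rose against control (background 12.5% and 9.7%), with a median of -0.27. With USP28 virus 23 fell and 0 rose against control (6.25% and 5.42%), with a median of -0.35. The 2 comparisons share the control libraries. Between the viruses none of the 53 passed, and 12 had an unadjusted p under 0.05 (16.7% of all genes). The factors were longer than the subunit genes, with a median of 2137 bases, and null-virus replicate 1 was above all other libraries for 25 of the 53.

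Without replicate 1 the counts against control were 28 lower and 2 higher with null virus (16.3% and 15.6% of all genes) and 32 lower and 2 higher with USP28 virus (15.4% and 14.1%). Without control replicate 1, 2 or 3, the number passing with null virus was 12, 13 and 11, all lower, against 7.93%, 5.7% and 5.52% of all genes. With USP28 virus it was 11, 8 and 6 without those controls, all lower, against 3.54%, 1.38% and 1.34%. It was 6, 10 and 10 without USP28-virus replicate 1, 2 or 3, again all lower, against 1.22%, 2.83% and 2.27%.

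Taco1, which activates translation of the mitochondrially encoded core subunit mt-Co1, fell most with null virus. It was at 20.4, 19.9 and 20.5 scaled RPKM in control, 6.04, 6.45 and 8.14 with null virus, and 7.24, 9.7 and 10.3 with USP28 virus. Every db/db library lay at or under 10.3, below all control libraries. Its log2 difference from control was -1.56 with null virus (SE 0.15, adjusted p = 0.000917) and -1.17 with USP28 virus (adjusted p = 0.00466). Lyrm7, a chaperone of the Rieske protein, was at 4.01, 4.04 and 4.2 in control, 1.79, 1.42 and 1.61 with null virus, and 2, 2.3 and 2.54 with USP28 virus. Its 3 groups did not overlap, with null virus lowest. The log2 differences from control were -1.30 (adjusted p = 0.000752) and -0.82 (adjusted p = 0.00676), and USP28 virus exceeded null virus by 0.48 (adjusted p = 0.12, and 0.0285 without replicate 1).

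Further factors fell with both viruses. For complex IV these included Coa5 (log2 -1.20 with null virus and -1.18 with USP28 virus), Cox10, which makes haem O (-0.84 and -0.73), and Cox11, which delivers copper (-0.58 and -0.70). For complex III they included Uqcc1 (-0.80 and -0.63), Ttc19 (-0.54 and -0.66) and Bcs1l (-0.56 and -0.68). For complex V they were Atpaf1 and Atpaf2, chaperones of the F1 beta and alpha subunits (-0.82 and -0.72, and -0.61 and -0.68). Sdhaf4, a chaperone of Sdha, fell by 0.74 and 0.56, and the complex I factor Ndufaf6 by 0.41 and 0.45. Other complex I factors passed in 1 comparison, Acad9 with null virus (-0.44), and Ndufaf5 and Ndufaf4 with USP28 virus (-0.63 and -0.52). Cox17, a copper chaperone, rose with null virus by 0.77 (adjusted p = 0.0391). Atpif1, which stops the ATP synthase from running backwards, was at 110, 109 and 118 in control, 276, 172 and 165 with null virus, and 126, 144 and 162 with USP28 virus. Null virus was above both other groups (log2 0.82 against control, adjusted p = 0.0195).

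Of 12 transcriptional regulators of subunit genes, 5 fell and 1 rose with null virus (12.5% and 9.7% of all genes), and 2 fell with USP28 virus against control (6.25%). Without replicate 1 the counts were 5 and 1 with null virus (16.3% and 15.6%), and 4 and 1 with USP28 virus (15.4% and 14.1%). Ppargc1b, a coactivator of mitochondrial genes, was at 5.4, 3.39 and 4.21 in control, 1.92, 1.55 and 2.36 with null virus, and 3.82, 3.69 and 5.16 with USP28 virus. The null-virus libraries lay below all others. It fell by 1.11 on the log2 scale from control to null virus (adjusted p = 0.00845), and USP28 virus exceeded null virus by 1.08, with adjusted p = 0.0701 for all libraries and 0.0413 without replicate 1. Ppargc1a, its better known relative, fell by 0.75 with null virus (adjusted p = 0.0305). Ppara fell by 1.38 (adjusted p = 0.0069), but some of its values are not whole reads. Esrrg, an estrogen-related receptor, fell by 0.69 with null virus and 0.71 with USP28 virus, and Tfam, which packages mitochondrial DNA, by 0.42 and 0.45. Nrf1 rose by 0.65 with null virus (adjusted p = 0.00924).

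Of the 13 subunits encoded in mitochondrial DNA, mt-Nd4l fell with null virus (log2 -0.66, adjusted p = 0.0402), and it was the only one to pass in any comparison with all libraries. Their median differences were 0.10 for null virus and -0.11 for USP28 virus against control, and -0.08 between the viruses. Without replicate 1 the first and the last changed sign, to -0.10 and 0.03, and the other was -0.11.

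Markers of other cell types moved as well. Summed endothelial markers were at 140 to 163 scaled RPKM in control, 278 to 368 with null virus and 229 to 258 with USP28 virus. With null virus 2 of 6, Cldn5 and Fabp4, rose (9.7% of all genes), and the log2 differences of the 6 ran from -0.48 to 1.44. Without replicate 1, 4 of the 6 passed as higher and 1 as lower (15.6% and 16.3% of all genes). Of 7 fibroblast markers 4 fell with null virus (12.5% of all genes), and the sum of the 7 was 65.5 to 85.5 in control and 71 to 84 with null virus. Without replicate 1, 4 fell and 1 rose (16.3% and 15.6%), and with USP28 virus 2 fell against control (6.25%). Of 6 macrophage markers 3 fell with null virus (12.5%), with sums of 21.9 to 26.9 in control and 15.6 to 19.6 with null virus. Without replicate 1 there were again 3 (16.3%), and with USP28 virus 1 fell against control (6.25%). Summed smooth muscle and pericyte markers were at 179 to 222 in control, 185 to 239 with null virus and 227 to 266 with USP28 virus. Of these 5 markers 0 passed with null virus, and 1 rose with USP28 virus against control (5.42% of all genes). Without replicate 1, 2 rose and 1 fell with null virus (15.6% and 16.3%), and 2 rose with USP28 virus (14.1%). Of 5 brown fat markers only Cidea was tested, and it rose with both viruses. Their sum was 13.3 to 17.2 in control, 30.7 to 61.9 with null virus, highest in replicate 1, and 29.3 in each USP28-virus library. Skeletal muscle markers, some of which the heart also expresses, summed to 435 to 590 in control, 267 to 312 with null virus and 230 to 253 in the USP28-virus libraries. Of 4 tested, Acta1 and Ckm fell with both viruses (12.5% of all genes with null virus and 6.25% with USP28 virus). Acta1 did not pass with null virus without replicate 1 (adjusted p = 0.0708). Ucp1, which defines brown fat, had 2 reads in control replicate 1 and 0 in the other libraries. Summed atrial markers were at 1425 in USP28-virus replicate 1 and at 78.8 to 340 elsewhere, and summed erythroid markers at 526 in control replicate 2 and at 108 to 270 elsewhere. In bulk tissue, fewer cells of a type and less RNA per cell cannot be told apart, and the part of these markers in the subunit results was not tested.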

How the data were processed

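RNA of left ventricular tissue was poly(A)-selected and made into directional libraries read from both ends, per the labels' protocols. The submitters' processing notes name HISAT2 and DESeq2, without versions or roles, and the human build GRCh38, while symbols and spans are mouse: 25445 of 30128 spans, and 67 of 86 members', equal GENCODE M21 on GRCm38. The authors deposited RPKM values with gene lengths, and how they were counted is not stated. RPKM as the unit was read from the values themselves. Multiplied by length, 99.98% of values above 0 came to whole reads (tolerance 0.01), which gave the depth. All members' values are whole reads.

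RPKM was scaled by a trimmed mean of M values (30% and 5% trimmed), and 0.1 was added before taking log2, so changes of low genes are understated. The test was limma 3.58.1 in R 4.3.3, its prior trended and robust, in 1 fit of 9 libraries and 3 groups without covariates. The filter kept genes reaching RPKM 0.5 in 3 libraries. P-values were adjusted by Benjamini-Hochberg over all genes tested within a comparison, with 0.05 as threshold. The fit was tested on simulated data. A listed 0 means 0 reads counted. For counting error only, the expected count behind it can be up to 3 reads, which is 0.0531 to 0.0834 counts per 1e6 reads by library. Figures used matplotlib 3.10.9 in Python 3.11.15.

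Members and gene lists were chosen with earlier results of these data known. Named genes were fixed paired forms and core subunits, members past the threshold, the 3 largest in each direction of those past it only without null-virus replicate 1, the highest and lowest of each complex by RPKM, and up to 3 genes per pathway list and comparison. Not every gene of this rule is reported here. Other genes named beside these were chosen after their values were seen. Alternatives were scaling by median of ratios or library totals, pseudocounts, filters, fits of 2 groups alone, a replicate block, limma voom on recovered reads, removal of the length trend, dropping values that were no whole number of reads, and each library left out. The same alternatives for assembly factors, and levels per principal transcript, were chosen after seeing the data. Replicate numbers showed no sign of pairing the libraries, and replicates never had identical values.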

Additional observations from a re-analysis of the deposited data

How the results depend on the processing

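With null virus against control, 6 members passed, 18 with scaling by library totals with or without mitochondrial genes, 14 with limma voom on recovered reads, 1 without a filter on low values, 1 in a fit of the 2 groups alone, and 1 to 19 with 1 library left out. The 20 assembly factors that passed there became 11 to 30 with 1 library left out. Over all genes, those settings in turn gave 8.71%, 8.23%, 11%, 2.83% and 5.34% higher and 8.5%, 9.22%, 14.2%, 3.99% and 7.07% lower, and leaving out 1 library 4.66% to 15.6% higher and 5.52% to 16.3% lower. With USP28 virus against null virus, 0 members and 0 assembly factors passed, and 0 to 4 of each with 1 library left out, the 4 being without null-virus replicate 1. With USP28 virus against control, 1 member passed, 0 with either library total, 0 without the filter, 12 in a fit of the 2 groups alone, and 0 to 17 with 1 library left out. Over all genes these gave 4.34%, 4.21%, 1.43% and 13.4% higher and 2.19%, 2.39%, 1.54% and 15.1% lower, and 1.41% to 14.1% higher and 1.22% to 15.4% lower with 1 library left out. The 23 assembly factors became 11 without the filter and 6 to 34 with 1 library left out. The members' median stayed above 0 with null virus against control under every alternative (0.11 to 0.51), below 0 between the viruses (-0.51 to -0.12), and changed sign with USP28 virus against control (-0.08 to 0.04). Of the 7 members that passed with all libraries, Sdhc passed under every alternative and the other 6 were lost under some. In a paired fit with the replicate number as a block, 4 members passed with null virus against control and 0 with USP28 virus against control, and 14 assembly factors passed in the latter. Deviations of same-numbered libraries correlated between -0.03 and 0.06, which gave no sign of pairing. With 3 libraries per group this cannot exclude a weak pairing. Shares of tissue forms depend on gene length: over reads in place of RPKM, Atp5g1 held 39.3% in control in place of 21.9%, Cox4i2 0.507% in place of 0.993% and Cox7a1 95.6% in place of 97.5%. Of the 21 differences between groups in these shares, 4 then moved by more than the spread between replicates, without a change of sign. Each group has 3 libraries, and 1 library of the null-virus group sets much of its spread.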
